A study of Bos taurus with 15 samples.

Results

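The white blood cell genes CYBB, FCER1G, CD53, CD48 and LCP2 were examined in the endometrium of cows during the estrous cycle and early pregnancy. They were listed by name as myeloid and general leukocyte genes, and each of the 5 had exactly 1 probe among the 15208 non-control probes of the array, which carried 6885 distinct gene symbols. All 5 were among the 13164 probes tested. Caruncular endometrium of Japanese Black cows, with 1 cow per array, was hybridized to a custom single-color Agilent array. The NP15 group (n = 4) and the NP18 group (n = 4) were cows on days 15 and 18 of the estrous cycle, and the P15 group (n = 3) and the P18 group (n = 4) were pregnant cows on days 15 and 18, counted with the day of artificial insemination as day 1. The study describes 4 animals per stage, and 15 arrays were analyzed here. Pregnancy was read by eye, from trophoblast seen in the opened uterine horn after slaughter, and no other treatment is given for the cows. The comparisons ask whether the 5 genes differed with pregnancy on each day, and with the day within each status.

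CYBB encodes the catalytic, membrane-bound subunit of the phagocyte NADPH oxidase, which makes superoxide in neutrophils and macrophages. FCER1G encodes the common gamma chain, an adaptor that several Fc receptors and other activating receptors need for surface expression and for signaling through its ITAM, a tyrosine-based activation motif. CD53 is a tetraspanin of leukocytes, CD48 is a lipid-anchored ligand of the SLAM family that binds CD2 and CD244, and LCP2 (SLP-76) is the scaffold that links receptor-bound kinases to phospholipase C gamma in T cells, mast cells, platelets and other blood cells. The ruminant endometrium normally holds macrophages, lymphocytes and granulocytes, and the elongating conceptus secretes interferon tau in the days before implantation. In whole tissue, more cells of a type and more RNA per cell cannot be told apart.

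The probe sequences of the 4 genes below are shown because each value of a gene rests on this single stretch of 60 bases, as given by the scanner files, 5′ to 3′. In the FCER1G probe, capitals mark 12 bases of the only reading frame without a stop codon, from a tyrosine codon to a leucine codon 3 codons later, which is one arm of the ITAM. In the CYBB probe, capitals mark the stop codon, which follows 15 codons and leaves 10 bases behind it. No part is marked in the CD53 and CD48 probes, which were designed from expressed sequence tags.
FCER1G: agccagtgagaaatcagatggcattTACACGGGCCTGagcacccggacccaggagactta
CYBB: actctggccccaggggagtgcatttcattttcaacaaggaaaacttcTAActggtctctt
CD53: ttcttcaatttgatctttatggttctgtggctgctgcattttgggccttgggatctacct
CD48: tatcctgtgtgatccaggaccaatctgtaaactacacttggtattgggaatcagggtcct
No 20-base stretch of any of the 5 probes, LCP2 included, was found in another probe of the array on either strand. The GC content was 45.0% in the CYBB and CD48 probes, 55.0% in the FCER1G probe, 43.3% in the CD53 probe and 35.0% in the LCP2 probe. In the RefSeq annotation of ARS-UCD2.0, used here only for names and neighbors, CD48 lies between the protein-coding genes SLAMF7 and SLAMF1, which belong to the same receptor family.

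A level is given as a multiple of the array median, that is, the processed signal of the probe divided by the median signal of all non-control probes of that array. Levels of different probes are not comparable with each other. The array median was from 315 to 686 on day 15, from 790 to 838 in the NP18 group and from 407 to 563 in the P18 group, and the lowest signal marked well above background was from 9.60 to 28.3 on day 15 and from 53.5 to 75.03 on day 18. The stromal marker DCN and the epithelial marker EPCAM were well above background in all 15 arrays. The probe of PTPRC, the defining surface protein of all leukocytes (CD45), was well above background in only 5 of 15 arrays and in 0 of 4 of the P18 group. By contrast, the 5 genes were well above background in all 15 arrays, except for LCP2 in P18 replicate 1.

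A gene was called when its limma p, adjusted by Benjamini and Hochberg over all probes, was under 0.05 and its difference exceeded 2-fold. Of the 5 genes, 0 were called in each of the 4 comparisons and in the interaction, beside 0.798% of all probes between P15 and NP15, 5.75% between P18 and NP18, 7.16% between NP18 and NP15, 11.9% between P18 and P15, and 2.72% in the interaction. At an unadjusted p below 0.05 with no fold limit, limma found 0, 3, 1 and 1 of the 5 in these comparisons and 0 in the interaction, beside 14.9, 24.1, 29.3, 32.6 and 19.3% of all probes. The unpaired test named in the study's methods found 0, 3, 0 and 2 at an unadjusted p below 0.05, and after adjustment 0, 0, 0 and 1, which was CYBB between P18 and P15 at 1.60-fold. The 3 on day 18 in limma were CYBB, FCER1G and CD53.

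The highest levels of CYBB were all in the P18 group, where the 4 cows lay above every cow of the other groups, and the mean was 1.37 ± 0.120 array medians (SD, n = 4). The highest 4 levels of FCER1G were in the P18 group too, with less distance to the other groups. CD53 had its lowest mean in the NP18 group, and for CD48 and LCP2 all groups overlapped. Thus 2 of the 5 genes, CYBB and FCER1G, had every P18 array above every NP18 array, an order that 10.5% of all probes had too. The same 2 of 5 had every P18 array above every P15 array, beside 26.7% of all probes. None had groups without overlap between P15 and NP15 or between NP18 and NP15, where 15.6% and 13.1% of all probes had groups apart in either direction.

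CYBB, the oxidase subunit, was at 1.01, 0.548, 0.743 and 0.579 array medians in NP15 replicates 1 to 4, with a mean of 0.719 ± 0.210 (SD, n = 4). In P15 replicates 1 to 3, it was at 0.972, 0.672 and 0.946, with a mean of 0.863 ± 0.166 (SD, n = 3). In NP18 replicates 1 to 4, it was at 0.681, 1.16, 0.677 and 0.909, with a mean of 0.856 ± 0.229 (SD, n = 4). These 3 groups overlapped each other. In P18 replicates 1 to 4, it was at 1.39, 1.49, 1.39 and 1.21, and the lowest of these was above the highest value of any other group, with a coefficient of variation of 8.76% against 19.2 to 29.2% in the other groups.

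The difference of CYBB between the P18 and NP18 groups was 0.71 on the log2 scale (SE 0.24, 95% confidence interval 0.19 to 1.23), a 1.63-fold difference with an adjusted p of 0.0945 by limma and a p of 0.0286 by an exact two-sided permutation test, which is the smallest that 4 against 4 cows allow. Between the P18 and P15 groups, it was 0.68 (SE 0.26, 95% confidence interval 0.12 to 1.24), with an adjusted p of 0.0879 by limma and an exact permutation p of 0.0286, again the smallest possible. Of all probes tested, 11.5% had a smaller unadjusted p than CYBB in the former comparison and 23.7% in the latter. The P18 group was also apart from the NP18 and P15 groups with division by the 75th percentile, quantile normalization, normexp background correction and the authors' own log2 values. Before any scaling, however, the CYBB signal was from 564 to 838 in the P18 group and from 548 to 915 in the NP18 group, so that these groups overlapped and the separation came with the scaling between arrays. On day 15, the difference between pregnant and non-pregnant cows was 0.29 (95% confidence interval -0.27 to 0.85, adjusted p = 0.650 by limma, exact p = 0.371).

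FCER1G, the common gamma chain, was at 0.150, 0.177, 0.121 and 0.173 array medians in NP15 replicates 1 to 4, and at 0.154, 0.157 and 0.164 in P15 replicates 1 to 3. In NP18 replicates 1 to 4, it was at 0.170, 0.138, 0.151 and 0.158, so that the NP15, P15 and NP18 groups had nearly the same means of 0.155 ± 0.0259 (SD, n = 4), 0.158 ± 0.00476 (SD, n = 3) and 0.154 ± 0.0134 (SD, n = 4). In P18 replicates 1 to 4, it was at 0.206, 0.233, 0.191 and 0.180, with a mean of 0.203 ± 0.0231 (SD, n = 4), and no value overlapped those of the other groups.

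The P18 group was above the NP18 group by 0.39 on the log2 scale for FCER1G (SE 0.18, 95% confidence interval 0.01 to 0.77, adjusted p = 0.193 by limma, exact permutation p = 0.0286). Against the P15 group, the difference was 0.35 (95% confidence interval -0.06 to 0.76, adjusted p = 0.221 by limma, exact permutation p = 0.0571). This probe was dim, at 1.06 to 2.29 times the lowest signal well above background in the P18 arrays and 1.45 to 2.40 times in the NP18 arrays. Before scaling, its signal was from 77.8 to 131 in the P18 group and from 109 to 136 in the NP18 group, so the order of the groups came with the division by the array median. With the 75th percentile, quantile normalization, normexp or the authors' values, the P18 and NP18 groups overlapped, and with the 75th percentile or the authors' values the P18 and P15 groups overlapped too. In each of the 4 comparisons between groups, the 95% confidence interval of its fold change stayed within 2-fold, the farthest bounds being 0.769 and 1.71.

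CD53, the tetraspanin, was at 1.45, 0.634, 0.761 and 0.823 array medians in NP15 replicates 1 to 4, where replicate 1 was far above the rest, and at 0.825, 0.893 and 0.903 in P15 replicates 1 to 3. In NP18 replicates 1 to 4, it was at 0.316, 0.623, 0.472 and 0.786, with a mean of 0.549 ± 0.202 (SD, n = 4), the lowest of the 4 groups. In P18 replicates 1 to 4, it was at 0.706, 1.02, 1.39 and 0.937, with a mean of 1.01 ± 0.286 (SD, n = 4). Of these 4 values, 3 were above all NP18 values, and the lowest was below the highest NP18 value.

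The difference of CD53 between the P18 and NP18 groups was the largest among the 5 genes in the pregnancy comparisons, at 0.92 on the log2 scale (SE 0.31, 95% confidence interval 0.25 to 1.59), a 1.89-fold difference with an adjusted p of 0.0920 by limma and an exact permutation p of 0.0571. It was between 0.68 and 1.12 when each of the 8 arrays was left out in turn. Between the NP18 and NP15 groups, the difference was -0.74 (SE 0.31, adjusted p = 0.130 by limma, exact permutation p = 0.114), and it was -0.50 without NP15 replicate 1. These groups overlapped, except with the 75th percentile or the authors' values. The P15 and NP15 groups differed by 0.00 (95% confidence interval -0.72 to 0.72). The difference between the day 18 and day 15 effects of pregnancy, tested as an interaction, was 0.92 (95% confidence interval -0.07 to 1.90, adjusted p = 0.293 by limma).

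**Figure D1:**
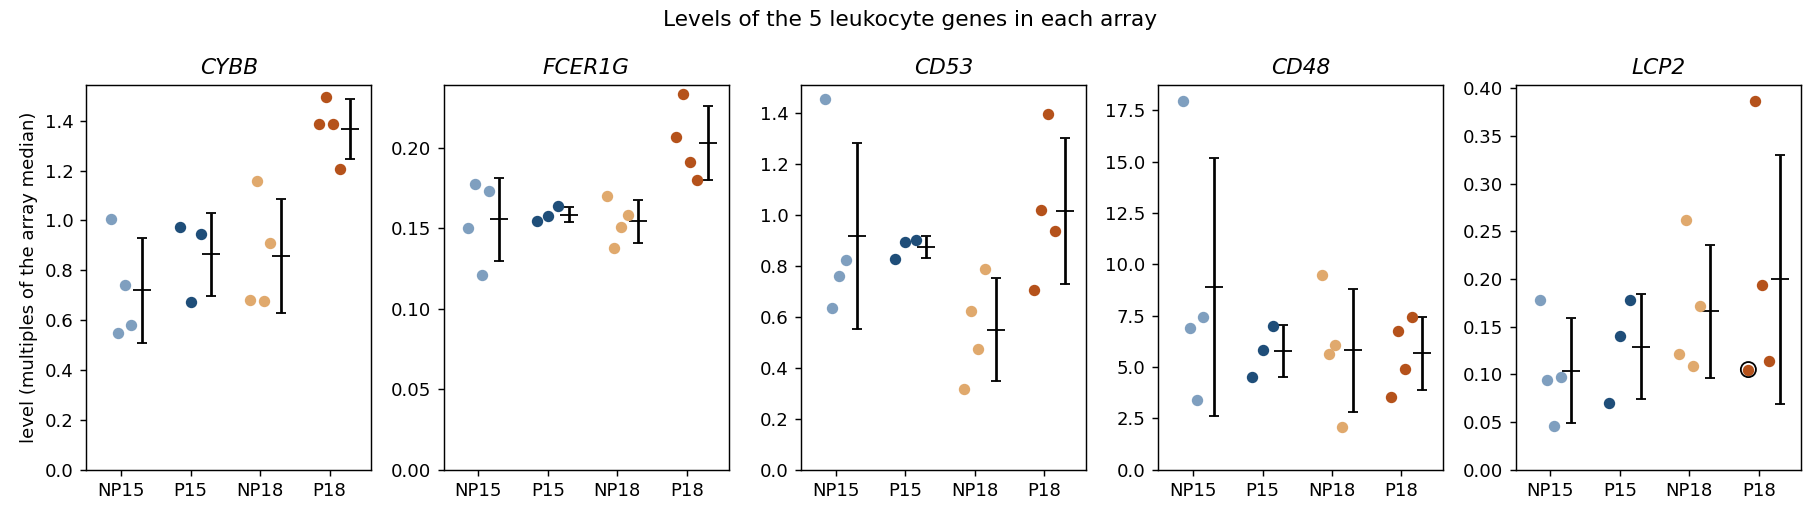
Level of each of the 5 genes (vertical axis, multiples of the array median, linear scale from 0) in each array of the NP15, P15, NP18 and P18 groups, with bars for the group mean and SD. The ringed point is LCP2 in P18 replicate 1, which was not well above background, and only CYBB and FCER1G have all 4 P18 points above every other point.

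CD48, the SLAM-family ligand, was at 17.9, 6.89, 3.40 and 7.43 array medians in NP15 replicates 1 to 4, and at 4.50, 5.82 and 7.0003 in P15 replicates 1 to 3. In NP18 replicates 1 to 4, it was at 9.46, 5.62, 6.06 and 2.10, and in P18 replicates 1 to 4 at 3.53, 6.77, 4.89 and 7.44. All 4 groups overlapped, and the highest and the lowest value both came from non-pregnant cows. Within the NP15 group, the highest cow was 5.28 times the lowest. The P18 and NP18 groups differed by 0.09 on the log2 scale (95% confidence interval -0.95 to 1.13, adjusted p = 0.934 by limma, exact permutation p = 0.886). As a fold change, the interval runs from 0.517 to 2.19, and differences within it are not excluded by these arrays. The P15 and NP15 groups differed by -0.40 (95% confidence interval -1.52 to 0.73, adjusted p = 0.775 by limma), and by 0.03 without NP15 replicate 1.

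LCP2, the adaptor, was at 0.178, 0.0937, 0.0457 and 0.0974 array medians in NP15 replicates 1 to 4, and at 0.0696, 0.140 and 0.178 in P15 replicates 1 to 3. In NP18 replicates 1 to 4, it was at 0.121, 0.262, 0.109 and 0.171, and in P18 replicates 1 to 4 at 0.105, 0.386, 0.193 and 0.114. The groups overlapped throughout, and the P18 mean of 0.200 ± 0.131 (SD, n = 4) rested largely on replicate 2. The P18 and NP18 groups differed by 0.15 on the log2 scale (95% confidence interval -0.88 to 1.18, adjusted p = 0.885 by limma), and by -0.24 without P18 replicate 2. Its largest difference was between the NP18 and NP15 groups, at 0.75 (95% confidence interval -0.28 to 1.78, adjusted p = 0.325 by limma, exact permutation p = 0.171). Like FCER1G, this probe was dim, at 0.762 to 3.801 times the lowest signal well above background in the P18 arrays.

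All 5 genes had a positive log2 difference between P18 and NP18, as did 55.7% of all probes. The median log2 difference of the 5 between P18 and NP18 was 0.39, and it was 0.07 over all probes tested. Between P15 and NP15, these medians were 0.04 and -0.06. The exact permutation test was run 20 times, and its p-values are not adjusted.

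**Figure D2:**
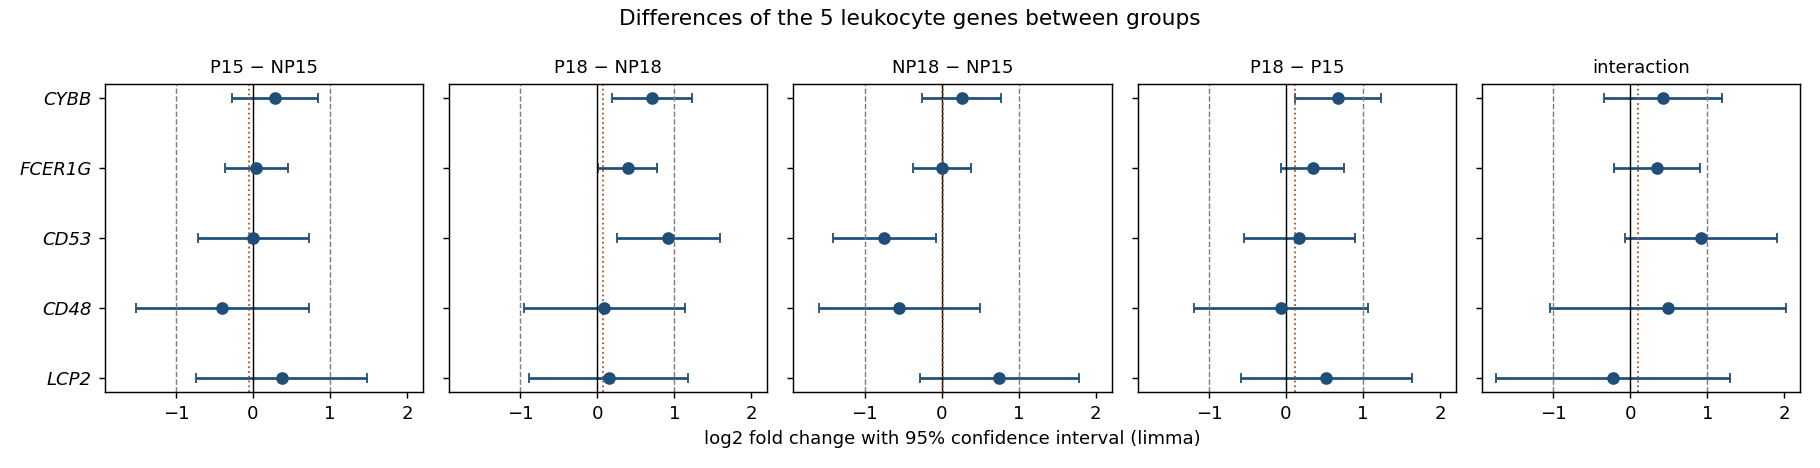
Log2 fold change of each of the 5 genes (points) with its 95% confidence interval by limma (bars) in the 4 comparisons and the interaction. Dashed lines mark a 2-fold difference and the dotted line the median of all probes tested, and no gene passed the threshold in any panel.

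Of the other subunits of the oxidase that CYBB belongs to, 6 of 8 listed genes were on the array. Between P15 and NP15 and between P18 and NP18, limma called 0 of these 6, and 1 and 2 had an unadjusted p below 0.05. RAC2, the small GTPase of the blood-cell oxidase, was higher in each P18 array than in each NP18 array, with a log2 difference of 0.86 and an adjusted p of 0.125 by limma. NCF1 (p47phox), an organizer subunit, fell by 1.50 on the log2 scale from NP15 to NP18 (adjusted p = 0.00261 by limma). The median log2 difference of the 6 between P18 and NP18 was 0.28.

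A list of Fc receptors, other activating receptors of myeloid cells and the adaptor TYROBP had 7 of its 16 genes on the array. Between P18 and NP18, limma called 1 of the 7, and 6 had a positive log2 difference. The 7 include FCGR2B, an inhibitory receptor, and CLEC7A, which carries a signaling motif of its own, so not all of them use FCER1G or TYROBP. FCGR3A, the low-affinity IgG receptor of natural killer cells and macrophages, was at 0.128 ± 0.0200 array medians in the NP18 group and at 0.791 ± 0.203 in the P18 group (SD, n = 4 each), which was a log2 difference of 2.60 (SE 0.34, adjusted p = 0.000343 by limma). FCGR1A, the high-affinity IgG receptor, differed by 1.63 with an adjusted p of 0.0594 by limma, and TYROBP by 0.66 with an adjusted p of 0.330. Whether FCGR3A and FCER1G differed in response was not tested.

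Around LCP2, 9 of the 10 genes on the array from a list of 21 kinases and adaptors were tested. LAT2, an adaptor of B cells and mast cells, was called between P18 and NP18, with a log2 difference of 1.13 (adjusted p = 0.0324 by limma). PLCG1, a phospholipase C gamma, differed by -1.60 (adjusted p = 0.0526 by limma), and each P18 array was below each NP18 array. Its probe was well above background in 0 of 4 P18 arrays. Of the 9, 5 had a positive log2 difference. The kinase SYK was well above background in 3 of 15 arrays. Of the 5 CD48 partners and SLAM-family genes on the array, SLAMF1 rose by 1.41 (adjusted p = 0.0269 by limma). The SLAMF1 probe was well above background in 0 of 4 NP18 arrays and 2 of 4 P18 arrays. CD2, a receptor of CD48, differed by 0.02 (adjusted p = 0.984 by limma). Of the 4 tetraspanins tested, limma called 0 in both pregnancy comparisons, and 2 on day 15 and 1 on day 18 had an unadjusted p below 0.05.

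Markers of macrophages included several that passed the test. Between P18 and NP18, 4 of 9 tested monocyte and macrophage markers were called higher and 0 lower. All 9 had a positive log2 difference, with a median of 1.33. C1QB and C1QC, chains of complement C1q, rose by 2.09 (SE 0.33, adjusted p = 0.00189 by limma) and 1.98 (SE 0.31, adjusted p = 0.00168). C1QA, another chain of C1q, differed by 0.13 (adjusted p = 0.919 by limma), and its probe was well above background in 0 of 4 P18 arrays. The scavenger receptor MSR1 rose by 1.39 (adjusted p = 0.0420) and the pore-forming MPEG1 by 1.33 (adjusted p = 0.0384), whereas CD14 differed by 0.82 (adjusted p = 0.189), the mannose receptor MRC1 by 0.51 (adjusted p = 0.543) and CD68 by 0.11 (adjusted p = 0.902). The summed level of the 10 markers on the array was from 28.9 to 46.4 array medians in the NP18 group and from 96.9 to 217 in the P18 group, without overlap. This sum is weighted to the brightest probe, C1QB, whose mean alone was 20.3 array medians in the NP18 group and 89.6 in the P18 group. ITGAM, a defining marker of myeloid cells, was well above background in 0 of 15 arrays. Whether the cells behind these markers had a part in the CYBB levels was not tested.

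**Figure D3:**
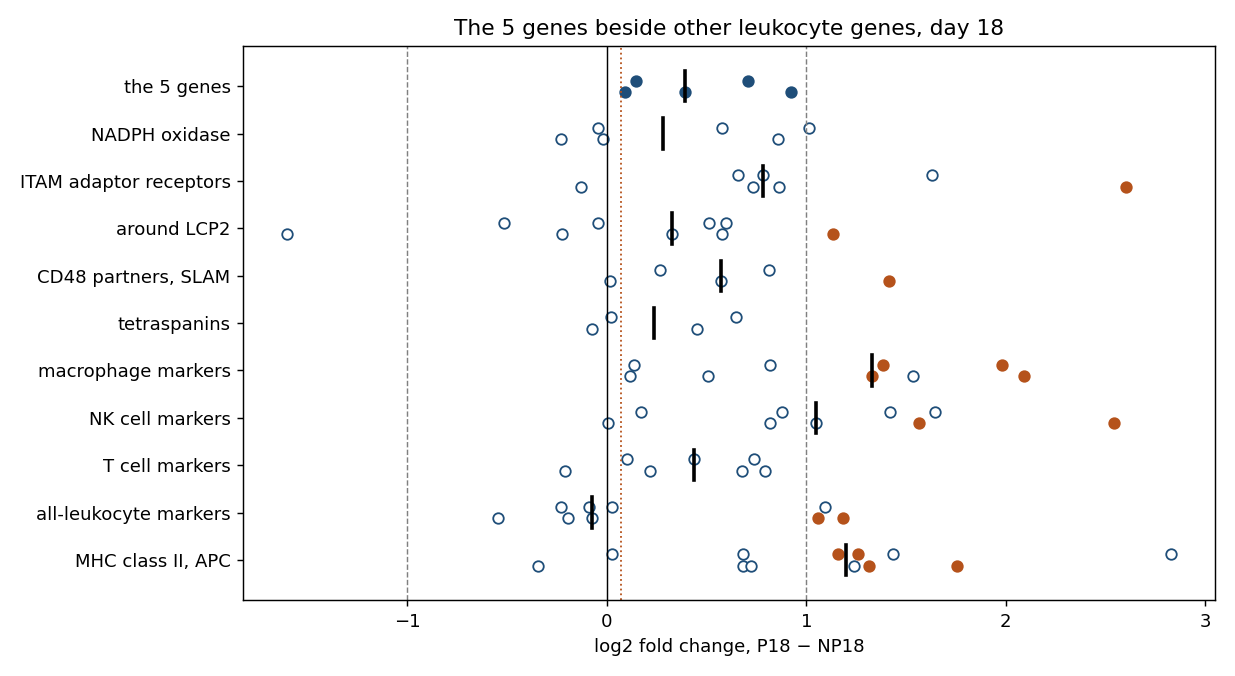
Log2 fold change between P18 and NP18 (horizontal axis) of the 5 genes (filled blue) and of the tested genes of 10 other leukocyte lists. Filled orange points passed the test, open points did not, short black lines are medians and the dotted line is the median of all probes. The macrophage markers have a median of 1.33 and the 5 genes 0.39.

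Other leukocyte lists gave mixed counts between P18 and NP18. Of 9 markers of all leukocytes tested, ITGB2 (beta 2 integrin) rose by 1.06, and the median of the 9 was -0.08. Of 9 natural killer cell markers, KLRD1 and KLRB1 were called higher, and all 9 had a positive log2 difference. However, the probes of NCR1, NKG7 and GZMA were well above background in 0 of 4 NP18 and 0 of 4 P18 arrays. The direction of these genes is therefore not informative, and KLRK1 differed by only 0.0058. Of 12 genes of MHC class II and antigen-presenting cells, BOLA-DMA, BOLA-DMB, BOLA-DOB and CTSS were called higher, and 11 had a positive log2 difference. Of 7 T cell markers, 3 B and plasma cell markers and 4 granulocyte and mast cell markers tested, 0 were called by limma, and 2, 1 and 1 had an unadjusted p below 0.05. S100A12, a calcium-binding protein of neutrophils, was nevertheless higher in each P18 array than in each NP18 array, with a log2 difference of 2.40 and an adjusted p of 0.0634 by limma. Of the 4 granulocyte and mast cell markers, 2 had a positive log2 difference, whereas HDC differed by -0.73 (adjusted p = 0.387 by limma) and KIT by -0.47 (adjusted p = 0.541). The summed level of the 4 was from 1.62 to 16.2 array medians in the NP18 group and from 24.6 to 48.8 in the P18 group, also without overlap. The brightest probe of this sum, S100A12, alone had a mean of 9.66 in the NP18 group and 35.2 in the P18 group. The part of these markers in the CYBB levels was not tested either.

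FCGR3A, C1QB, C1QC, KLRB1 and the 3 BOLA genes were called also when each of the 8 day 18 arrays was left out in turn. LAT2, SLAMF1, MSR1, MPEG1, ITGB2, KLRD1 and CTSS were called in 3, 5, 2, 4, 2, 1 and 4 of the 8 fits. Each of the 6 scan days held a single group, so that scan day and group cannot be told apart. With scan day as a random block, 0 of these leukocyte genes were called between P18 and NP18, and the adjusted p of CYBB, FCER1G and CD53 was from 0.835 to 0.868.

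Markers of several other tissues also moved with the P18 group. Of 6 trophoblast markers, 4 were called higher in P18 than in NP18, namely IFNT2 (interferon tau), TKDP1, TKDP4 and PAG2. The transcription factor ELF5 was called lower, by 2.34 on the log2 scale (adjusted p = 0.0262 by limma). The stromal collagen COL1A1 fell by 1.97 (adjusted p = 0.00759 by limma) and the endothelial PECAM1 by 1.54 (adjusted p = 0.0148), as 1 of 6 stromal and 1 of 5 endothelial markers. The smooth muscle gene ACTA2 fell by 3.90 (adjusted p = 0.00191 by limma), and CNN1 fell by 2.69 (adjusted p = 0.00630). PAG2 was not called without P18 replicate 2, ELF5 was not called without NP18 replicate 2 or 4 or P18 replicate 2 or 3, and with scan day as a random block 0 of these trophoblast, stromal, endothelial and smooth muscle genes were called. The summed level of the 6 trophoblast markers, carried by its brightest probes, was 0.552 array medians in P18 replicate 1 and 115, 70.2 and 510 in replicates 2 to 4, whereas it was from 0.381 to 1.50 in the NP18 group. The summed level of 3 smooth muscle markers was 34.4 in P18 replicate 1 and from 9.36 to 11.6 in replicates 2 to 4, and from 35.4 to 166 in the NP18 group. The trophoblast sum of P18 replicate 1 lay inside the NP18 range. Taken singly, however, IFNT2, TKDP1, TKDP4 and PAG2 were each higher in every P18 array than in every NP18 array. TKDP4 was well above background in 4 of 4 P18 arrays and in 0 of 4 NP18 arrays. P18 replicate 1 had CYBB at 1.39 and FCER1G at 0.206, both within the range of the other P18 arrays. It had the lowest CD53, CD48 and LCP2 of the P18 group, at 0.706, 3.53 and 0.105. Of 12 interferon-stimulated genes, 11 were called higher between P18 and NP18, and 10 of the 11 also with scan day as a random block. The part of these transcripts in the levels of the 5 genes was not tested.

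Across the 15 arrays, which share the scaling by their array medians, the 5 genes did not follow a single pattern. The Pearson correlation of log2 levels was highest for CYBB with LCP2 (r = 0.54), CYBB with CD53 (r = 0.49) and FCER1G with LCP2 (r = 0.46), and that of CYBB with CD48 was -0.12. For deviations from the group means, CYBB with CD53 gave 0.63 and CYBB with FCER1G -0.35. These values describe the 15 arrays and were not tested.

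The genes whose log2 levels followed each of the 5 most closely were searched for among 6480 probes with a symbol. CYBB was followed by CRYAB, a small heat shock protein (r = 0.92), JAML, an adhesion molecule of leukocytes (r = 0.92), and C1QB (r = 0.90), and the values for deviations from group means were 0.78, 0.79 and 0.73. FCER1G was followed by IQCD (r = 0.83), TMEM106A (r = 0.83) and IRF9, a subunit of the interferon-activated factor ISGF3 (r = 0.81), with 0.66, 0.53 and 0.46 for deviations. CD53 was followed by CCL5, a chemokine of T cells and natural killer cells (r = 0.87), 1 GAPDH probe (r = 0.87) and the glucose transporter SLC5A1 (r = 0.83). GAPDH had 101 probes, this one included, and the median of their correlations with CD53 was -0.18. CD48 was followed by SMPDL3A (r = 0.83) and GDPD2 (r = 0.82), and LCP2 by TRIP4 (r = 0.79), BRB (r = 0.78) and VSNL1 (r = 0.78).

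**Figure D4:**
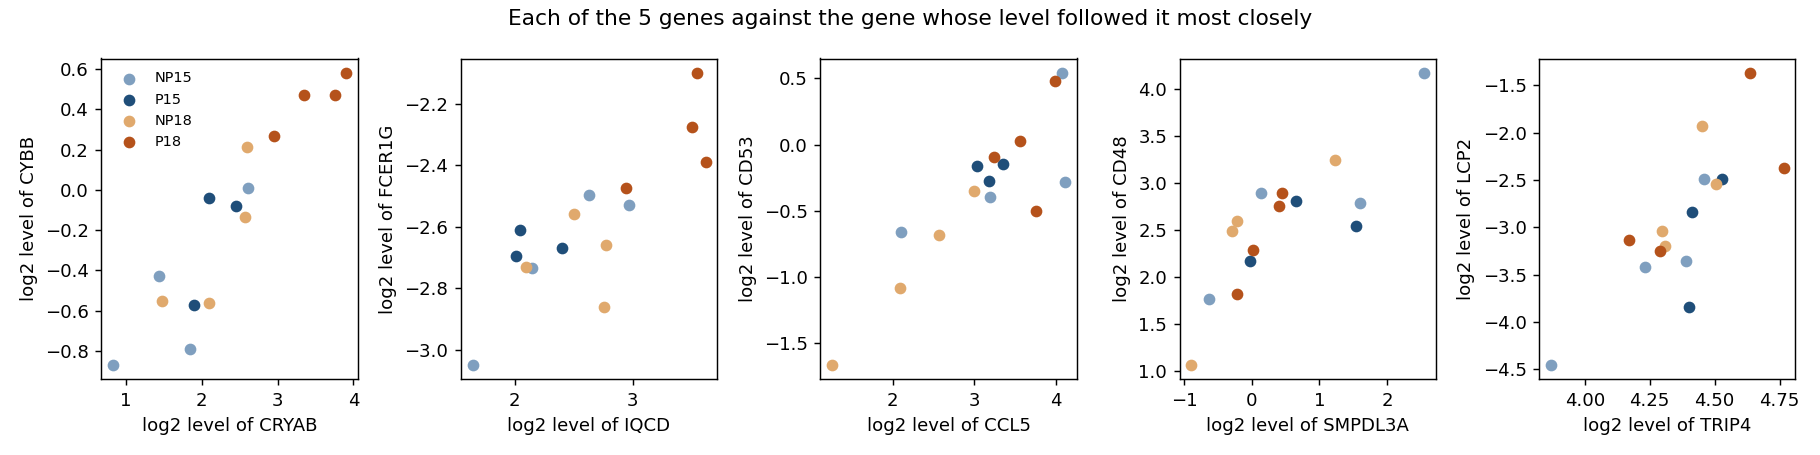
Log2 level of each of the 5 genes (vertical axes) against the log2 level of the gene that followed it most closely (horizontal axes) in the 15 arrays, colored by group. P18 points lie at the upper right for CYBB and FCER1G and are mixed with the other groups for CD53, CD48 and LCP2.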

How the data were processed

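Arrays were 1 per cow, and samples were grouped by the phase in the labels. In the deposited scanner files, every probe has a linear intensity that the authors obtained with Agilent Feature Extraction 9.5 per the labels, with background removed and no scaling between arrays. The deposited table of log2 values, made by the authors from the same intensities, was used as an alternative, and it equals log2 of the intensity minus a constant per array close to log2 of its 75th percentile.

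Following the methods, values were expressed relative to the array median before log2 transformation. Saturated spots stayed in, but controls and spots with an outlier mark did not. The filter asked for a signal well above background on 3 or more of the 15 arrays, which left 13164 probes for limma 3.58.1 (R 4.3.3), fitted with 1 mean per group, moderated variances and no covariate, and all p-values were adjusted over all probes. Calls required p under 0.05 after the adjustment of Benjamini and Hochberg and more than a 2-fold difference. The procedure was tested on simulated data with known changes. Exact two-sided permutation tests compared mean log2 values, and tables were made with Python 3.11.15, pandas 2.3.3 and numpy 2.4.6. With 3 or 4 arrays in a group, their number sets the precision, and depth in reads does not apply.

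The 5 genes were found by name in the files, 4 by gene symbol and LCP2 by its symbol in the description. Symbols of the other probes came from the files and the RefSeq table of ARS-UCD2.0, with 7218 probes named. The 5 genes, the 19 gene lists and the tests were chosen with earlier results of these data known. Named besides the 5 genes were listed genes that were called, up to 3 with the largest difference in the pregnancy comparisons, a few others of the lists chosen after their values were seen, and for each of the 5 the 3 symbols with the highest correlation. For listed genes with more than 1 probe, the probe with the highest mean log2 value stands for the gene. The alternatives were other scalings, filters and variance models, a fit of the compared groups alone, slide, scan day or replicate number as a block, other call rules, the unpaired test of the methods, and leaving out each array. PCR, staining and culture data of the study were not used here. Proteins and promoters were not analyzed here, and the values of a few single genes that these rules name are not reported here.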

Additional observations from a re-analysis of the deposited data

Results flagged for a closer look

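No array of the 5 genes stood apart from its group by Dixon's test in 15 groups of 4 arrays, and the interaction of pregnancy and day did not pass the threshold for any of the 5 in limma (adjusted p from 0.293 to 0.899). Among the listed genes, the effect differed between the days by the interaction in limma for those named here. On the log2 scale, the difference of the effects was 2.43 for KLRB1, -2.05 for VIM and 9.72 for TKDP4. It was 4.09 for ISG15, 2.76 for MX1, 5.53 for MX2, 5.08 for OAS2, 4.03 for IFIT3, 4.42 for RSAD2 and 2.83 for IRF9.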

How the results depend on the processing

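The count of 0 of the 5 genes called by limma held under every alternative fixed at the start, for all 4 comparisons and the interaction, the replicate block among them. The combinations below were chosen after seeing the data, each with no fold limit. Array weights then called 2 between P18 and NP18, FCER1G (0.51, adjusted p = 0.0274) and CD53 (0.82, adjusted p = 0.0347), and 2 between P18 and P15, CYBB (0.61, adjusted p = 0.0179) and FCER1G (0.41, adjusted p = 0.0158). A fit of the compared groups alone and the methods' test each called 1 between P18 and P15, CYBB (0.68, adjusted p = 0.0290 and 0.0422, respectively). Of the 25 log2 differences of the 5 genes, 16 kept their direction under all alternatives. The other 9 changed it. Array weights turned FCER1G to -0.0475 between P15 and NP15 and to -0.15 between NP18 and NP15, CD48 to 0.0888 between P18 and P15, and LCP2 to 0.0664 in the interaction. Normexp turned CD53 to -0.0106 between P15 and NP15 and CD48 to -0.0104 between P18 and NP18, where quantile normalization gave -0.00281. The 75th percentile and the authors' table gave -0.120 and -0.119 for FCER1G between NP18 and NP15, and -0.122 and -0.121 for CD53 between P18 and P15. These scalings moved the median of all probes, the 75th percentile by -0.30 and quantile normalization by -0.19 between P18 and P15.

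Leaving out each array in turn gave -0.0714 to 0.11 for FCER1G, -0.15 to 0.25 for CD53 and -0.78 to 0.0256 for CD48 between P15 and NP15, and -0.34 to 0.39 for CD48 and -0.24 to 0.40 for LCP2 between P18 and NP18. It gave -0.11 to 0.0690 for FCER1G between NP18 and NP15, -0.23 to 0.14 for CD48 between P18 and P15, and -0.62 to 0.12 for LCP2 in the interaction. The causes were not tested. The replicate block turned CD48 to 0.0281 between P18 and P15, and the numbers do not pair the cows, since the correlations of same-numbered deviations were from -0.13 to 0.30. With it, limma called 8, 614, 828, 1145 and 192 of all probes in the 4 comparisons and the interaction, against 105, 757, 942, 1566 and 358 without it. With scan day as a random block, these counts were 0, 49, 54, 0 and 0. Leaving out single arrays gave counts from 4 to 344, 428 to 1043, 616 to 1565, 737 to 1641 and 59 to 549. Array weights gave 853, 1344, 1529, 2408 and 1332, and no filter 118, 777, 1744, 3080 and 339. Slide as a random block gave 52, 531, 764, 1303 and 179, and normexp 107, 523, 597, 917 and 397. In the 4 comparisons, the groups alone gave 2, 477, 157 and 2091, the methods' test 0, 188, 137 and 1451 after adjustment and 433, 1157, 1071 and 2116 before it, and limma's unadjusted p 669, 1510, 1638 and 2217 (1845 in the interaction). LCP2 was not tested where a signal well above background was required on all 15 arrays. Signal over background limits the levels of FCER1G and LCP2, which were near background on day 18.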
